A study of Rattus norvegicus with 9 samples.

Results

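The enzymes described here carry out the conjugation step of liver metabolism: the UDP-glucuronosyltransferases (UGT) of families 1 and 2, the cytosolic sulfotransferases (SULT), and the glutathione S-transferases (GST) of the alpha, mu, theta, kappa, omega and zeta classes. Rows were chosen by gene name. Of 40154 rows in each expression file, 51 carried such a name, and 39 of these reached a level of 1 RPKM (reads scaled to gene model length and to library depth) in 3 or more of the 9 libraries. The 39 members were 15 UGT, 7 SULT and 17 GST rows, and the pi-class gene Gstp1 lay outside the rule. Ugt2b7 passed this filter solely through the PBS livers, the group in which it was high, so it had to differ and its values are a description.

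UGTs transfer glucuronic acid from UDP-glucuronate to bilirubin, steroids, bile acids and drugs. SULTs transfer sulfate from PAPS (3'-phosphoadenosine 5'-phosphosulfate) to phenols, steroids and bile acids, and GSTs join glutathione to electrophiles, among them lipid peroxidation products. The conjugates are more water-soluble and leave the hepatocyte through export pumps. Hepatocytes carry most of this capacity in the liver.

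Whole liver RNA came from wild-type Sprague-Dawley rats, 5 months old, in 3 groups with 3 libraries each. Rats of the normal group were given no cells and no carbon tetrachloride (CCl4, a hepatotoxin), which the design text implies the others had. PBS livers came from rats with cirrhosis injected with phosphate-buffered saline. HepLPC livers came from cirrhotic rats that were injected with HepLPCs, progenitor-like liver cells derived from rat hepatocytes. The labels give no route, cell number or interval, and do not say whether the 3 replicates of a group are separate animals, so p-values measure only the spread between these samples, which may be technical. Donor and host are the same species, so RNA of injected cells and of the host liver cannot be told apart.

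Depth, worked out from the RPKM values, was 17.4 M to 21.8 M reads per library. The summed RPKM of 10 hepatocyte markers (Alb, Ttr and others) was 81770 to 99829 in normal, 74457 to 87775 in PBS and 84918 to 103068 in HepLPC libraries, and limma called 0 of the 10 in any comparison, with 1 higher and 1 lower in PBS than normal livers, and 2 higher and 0 lower in HepLPC than PBS livers, at an unadjusted p under 0.05. Cholangiocyte markers summed to 13.9 to 16.6 RPKM in normal, 59.3 to 195 in PBS and 14.7 to 27.4 in HepLPC libraries, with 8 of 9 tested called higher in PBS than normal and 8 called lower in HepLPC than PBS. Stellate cell and myofibroblast markers summed to 38.3 to 44.2, 118 to 174 and 70.9 to 77.7 RPKM, with 7 of 9 called higher and then 4 lower. Of the tested markers, 4 cholangiocyte genes and 1 stellate cell gene passed the filter on low values only through the PBS libraries, so they had to differ. The sums were 213 to 274, 381 to 503 and 238 to 365 RPKM for macrophage markers, with 2 of 10 called higher and 2 lower. Of the endothelial markers 1 of 8 was called higher in PBS than normal livers, and of the lymphocyte markers 0 of 3 by limma (1 at an unadjusted p under 0.05). Beside these counts, 10.4% of all tested rows were called higher in PBS than normal livers and 2.93% lower in HepLPC than PBS livers. The endothelial count rests on 1 gene and is near that share, so it is no result about the list, and the macrophage counts rest on 2 genes. No marker of the 6 lists was at 0 in every library. In bulk RNA, fewer cells of a type and less RNA per cell cannot be told apart, and the part of these cells in the results below was not tested. PBS replicate 1 and HepLPC replicate 2 stood apart from the other libraries of their groups: the deviation of their rows from the group mean fell with gene model length (Spearman's rho -0.564 and -0.528 across 11124 rows), against -0.157 to 0.423 in the other libraries. Without this pair no member lost its call in PBS against normal livers. Without PBS replicate 1 alone, the calls of Gsta4, Gsta5, Gstm4, Sult1b1 and Ugt2b35 were lost (limma, adjusted p 0.0708 to 0.119). The calls were thus not independent of that library. In HepLPC against PBS livers the calls of Gstm1 (limma, adjusted p = 0.0562), Sult1c2a (0.0706) and Ugt2b35 (0.0843) were lost.

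Of the 38 members other than Ugt2b7, 9 were called higher in PBS than normal livers and 0 lower. Over all 39 members, 12 (Ugt2b7 among them) were higher and 1 lower at an unadjusted p under 0.05. The share of all rows at that unadjusted threshold is not given. Counts at an unadjusted p, here and elsewhere, are therefore no result about the members or lists. The test was limma on log2(RPKM + 1) across 11124 rows, and a row was called at an adjusted p under 0.05 (Benjamini-Hochberg over all rows). The called members were the GSTs Gstm1, Gstm4, Gsta3, Gsta4, Gsta5 and Gstt3, the UGTs Ugt2a3 and Ugt2b35, and the sulfotransferase Sult1b1. Ugt2b7 passed the filter on low values only through its PBS libraries and so had to differ, and it is not counted among them. The 9 of 38 members were 23.7%, beside 10.4% of all tested rows called higher and 0.944% called lower. The median difference of the 38 was 0.30 (log2 scale), beside 0.18 for all rows. Counted by groups that do not overlap, 11 of the 38 (28.9%) were higher in every PBS library than in every normal library, beside 32.7% of all rows. Lower in this way were 2 (5.26%, Gstm7 and Gstz1), beside 4.92% of all rows. Neither count says anything particular about the members.

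In HepLPC against PBS livers, Gstm1 and Ugt2b35 fell and Sult1c2a rose. These were 2 (5.26%) and 1 (2.63%) of the 38 members other than Ugt2b7, beside 2.93% of all rows called lower and 0.135% called higher. The median difference of the 38 was -0.35, beside -0.14 for all rows. Without the 8 UGT1 rows, the median of the other 31 members (Ugt2b7 included) was -0.27. Counted by groups that do not overlap, 18 of the 38 (47.4%) were lower in every HepLPC library than in every PBS library, beside 15.6% of all rows, and 5 (13.2%) were higher, beside 2.79%. Of the 18 rows, 7 were UGT1 rows that share most of their reads. The 5 higher were Gstm7, Gstz1, Sult1c2, Sult1c2a and Sult2a1. HepLPC against normal livers gave 0 called members by limma, beside 0.0809% of all rows (9 rows), with 3 members at an unadjusted p under 0.05 (Gstt3, Sult1c2a and Ugt2b1). The members' differences in that comparison ran from -1.08 to 0.74 with a median of -0.01. Each pair of comparisons shares a group of libraries, so their values are set side by side and not counted as separate evidence.

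**Figure D1:**
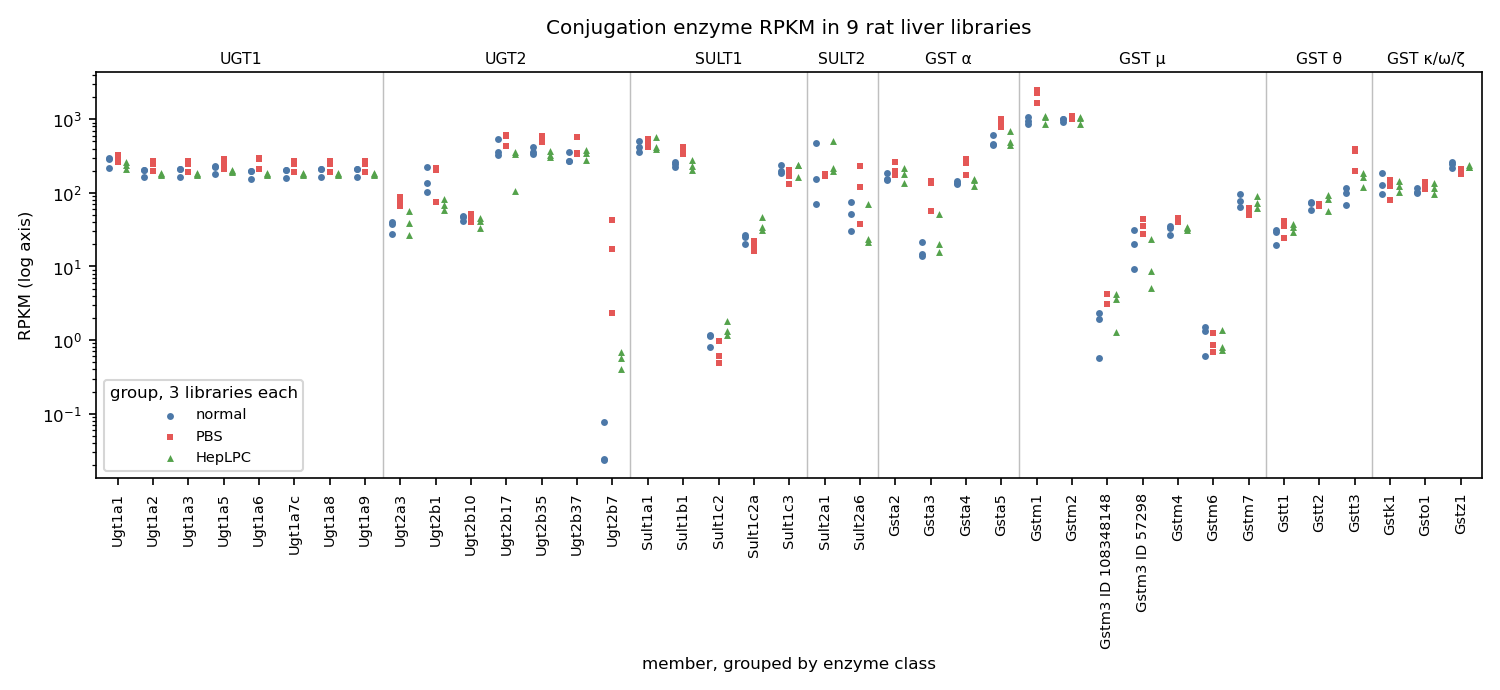
RPKM of the 39 members (vertical axis, log scale) in every library, grouped by enzyme class along the horizontal axis, with circles for normal, squares for PBS and triangles for HepLPC libraries. Gstm1 and Gstm2 sit highest at 863 to 2461 RPKM, and Ugt2b7 spans 0.0238 to 42.5 RPKM.

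The scale of the libraries bears on these counts. As deposited, the median of all rows was 0.18 higher in PBS than in normal livers and called rows split into 1157 higher and 105 lower. After rescaling each library by the median of its ratios to the mean library, that median was -0.04 and the split was 530 and 276, and after quantile normalization it was -0.04 and 492 and 222. Under the median of ratios, with Ugt2b7 left aside, Gsta3, Gstm1 and Gstt3 were called higher and Gstm7 lower, and in HepLPC against PBS 1 member was called higher and 0 lower. Gsta3, Gstm1 and Gstt3 were called higher in PBS than normal livers in all 18 alternative fits run, and the calls of Gsta4, Gsta5, Gstm4, Sult1b1, Ugt2a3 and Ugt2b35 were each lost in 7 or more of them. In HepLPC against PBS livers the calls of Gstm1, Sult1c2a and Ugt2b35 were lost in 5, 11 and 15 of 18.

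**Figure D2:**
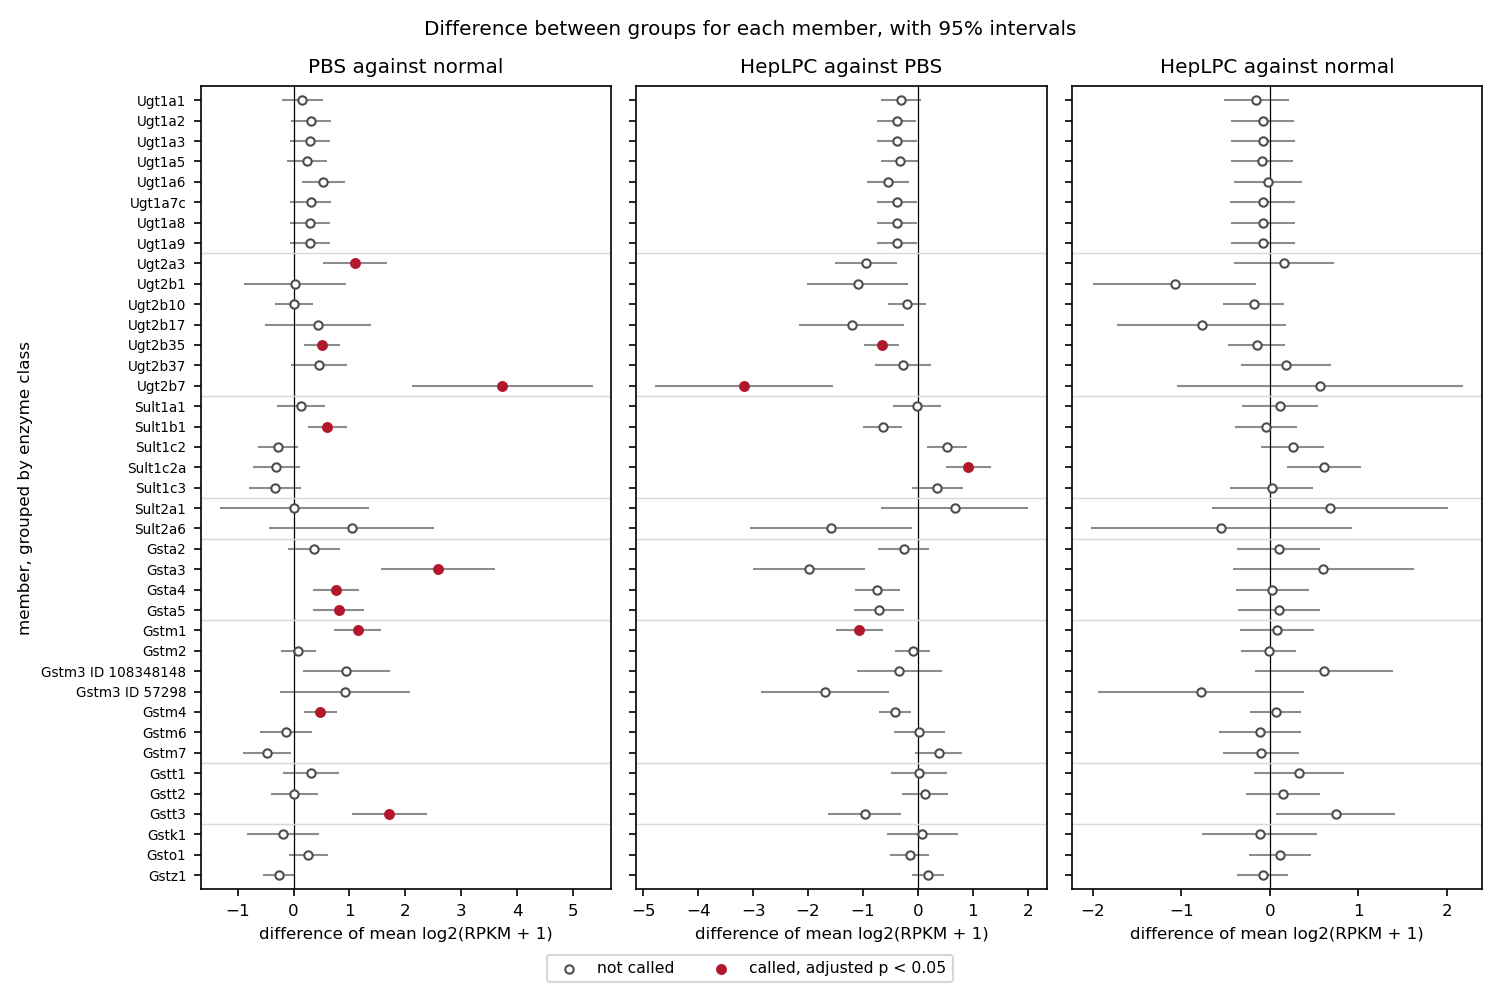
Difference of mean log2(RPKM + 1) for each member (horizontal axes, scaled separately) in the 3 comparisons, with 95% intervals as lines, filled points for called members and open points for the rest. The filled points number 10, 4 and 0 from left to right, with Ugt2b7 among the 10 and the 4 although it had to differ. Ugt2b7 has the widest interval of the filled points in PBS against normal.

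The mu-class GSTs were the most abundant class by summed RPKM, at 2082 ± 112 (SD, n = 3) in normal, 3331 ± 447 in PBS and 2122 ± 180.3 in HepLPC livers. Gstm1, a major mu-class enzyme of rat liver, stood at 1066, 934 and 869 RPKM in normal replicates 1 to 3, at 2288, 1669 and 2461 in PBS and at 1057, 872 and 1111 in HepLPC. Every PBS library lay above every other library, and the normal and HepLPC libraries overlapped. The difference was 1.15 (SE 0.19) on the log2 scale for PBS against normal (limma, adjusted p = 0.00491) and -1.07 (SE 0.19) for HepLPC against PBS (adjusted p = 0.0193). Without PBS replicate 3 or without HepLPC replicate 1, the second call was lost (adjusted p = 0.0874 and 0.0654). For HepLPC against normal the difference was 0.08 with a 95% interval of -0.34 to 0.50.

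Gstm2, the other abundant mu-class enzyme, ranged only from 863 to 1096 RPKM over all 9 libraries, and its difference for PBS against normal was 0.08 (95% interval -0.23 to 0.40, adjusted p = 0.735). The class therefore changed in make-up: Gstm1 was 45.9% of the mu-class sum in normal, 64.2% in PBS and 47.8% in HepLPC livers, and Gstm2 was 47.6%, 31.5% and 46.4%. Gstm4 stood at 33.1, 35.3 and 26.8 RPKM in normal, 46.2, 40.8 and 46.0 in PBS and 33.0, 31.2 and 34.8 in HepLPC livers. It was called higher in PBS livers at a small difference, 0.48 (SE 0.13, adjusted p = 0.0458), and that call was lost without any 1 library other than HepLPC replicate 2 (adjusted p 0.0616 to 0.155).

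Gstm7 ran the other way, at 78.5, 97.6 and 64.3 RPKM in normal against 61.3, 58.4 and 50.2 in PBS livers. Its groups did not overlap, as was the case in this direction for 4.92% of all rows. Its difference of -0.48 was not called (adjusted p = 0.141) as deposited and -0.76 (adjusted p = 0.0473) under the median of ratios. In HepLPC livers Gstm7 stood at 71.8, 61.4 and 91.0 RPKM. The row named Gstm3 with gene ID 108348148 was low throughout, at 2.32, 0.578 and 1.96 RPKM in normal and 4.18, 3.11 and 4.20 in PBS livers, and was not called (0.95, adjusted p = 0.114). The other Gstm3 row, gene ID 57298, ranged from 5.04 to 43.8 RPKM and was not called. Gstm6 lay near the filter, at or under 1.497 RPKM in every library.

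Of the 4 alpha-class GSTs, 3 (75.0%) rose in PBS livers, beside 10.4% of all rows called higher. Under the median of ratios 1 of the 4 was called higher, and after quantile normalization 2, beside 530 and 492 of all rows. These enzymes detoxify products of lipid peroxidation, and Gsta4 is known for its activity on the aldehyde hydroxynonenal. Gsta3 stood at 21.3, 14.8 and 13.9 RPKM in normal, 137, 56.4 and 143 in PBS and 51.0, 15.9 and 19.9 in HepLPC livers. The PBS libraries lay above all others, with PBS replicate 2 the lowest of them. Its difference of 2.59 (SE 0.46, adjusted p = 0.00705) was the largest among the GST members, and leaving out any 1 library kept the call. For HepLPC against PBS the difference was -1.98 (SE 0.46) and missed the threshold (adjusted p = 0.0513), which it passed without PBS replicate 2 (-2.42, adjusted p = 0.0273) or HepLPC replicate 1 (-2.47, adjusted p = 0.0321).

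Gsta5, the most abundant alpha-class row, stood at 602, 455 and 447 RPKM in normal, 1004, 786 and 829.8 in PBS and 495, 443 and 692 in HepLPC livers. Gsta4 stood at 138, 145 and 132 RPKM in normal, 287, 177 and 257 in PBS and 124, 152 and 149 in HepLPC livers. Both had PBS libraries above all others. The differences for PBS against normal were 0.80 (SE 0.20, adjusted p = 0.0344) for Gsta5 and 0.77 (SE 0.18, adjusted p = 0.0272) for Gsta4, and neither was called lower in HepLPC livers (-0.70, adjusted p = 0.11, and -0.74, adjusted p = 0.0659), though Gsta4 was without PBS replicate 2 (-0.94, adjusted p = 0.0185). The Gsta5 call was lost without normal replicate 2 or 3 or any 1 PBS library (adjusted p 0.0582 to 0.129), and the Gsta4 call without any 1 normal library or without PBS replicate 1 or 3 (adjusted p 0.0708 to 0.108). Gsta2, at 136 to 262 RPKM, was not called in any comparison. The names of this class have moved between genes: in the RefSeq gene table of GRCr8, Gsta2, Gsta3 and Gsta5 are each the symbol or an older name of 2 or 3 genes, so which protein a row stands for is uncertain. Reads of near-identical GST copies may also be split between rows.

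Among the theta-class GSTs, Gstt3 rose and the others did not pass the test. This was 1 of 3 members (33.3%), beside 10.4% of all rows called higher. Gstt3 stood at 69.5, 115 and 100.1 RPKM in normal, 394, 197 and 373 in PBS and 122, 189 and 166 in HepLPC livers. The 3 groups did not overlap, with HepLPC between the others. The difference for PBS against normal was 1.71 (SE 0.30, adjusted p = 0.0066), kept without any 1 library, and for HepLPC against PBS -0.97 (SE 0.30, adjusted p = 0.13), which was called without PBS replicate 2 (-1.29, adjusted p = 0.0424). For HepLPC against normal it was 0.74 (95% interval 0.07 to 1.41, adjusted p = 0.504). Gstt3 made up 49.9% of the theta-class sum in normal, 75.8% in PBS and 59.0% in HepLPC livers, while Gstt1 and Gstt2 stayed within 19.5 to 41.4 and 56.5 to 92.6 RPKM. None of the kappa, omega and zeta members (Gstk1, Gsto1 and Gstz1) was called. Gstz1, the maleylacetoacetate isomerase of tyrosine breakdown, stood at 217, 266 and 244 RPKM in normal and 214, 207 and 181 in PBS livers, lower without overlap, at a difference of -0.27 (adjusted p = 0.207). Of all rows, 4.92% were lower without overlap.

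Within the PBS group, the called members Gsta3, Gsta4, Gsta5, Gstm1, Gstm4, Gstt3, Sult1b1 and Ugt2b35 were each lowest in PBS replicate 2. The called member Ugt2a3 was highest there, with 66.7, 86.7 and 73.7 RPKM in PBS replicates 1 to 3. Cholangiocyte markers were highest in PBS replicate 2, with 59.3, 195 and 94.2 RPKM, and so were stellate cell and myofibroblast markers with 118, 174 and 149. Macrophage markers stood at 503, 486 and 381 RPKM and hepatocyte markers at 87775, 74457 and 78971. These are values of 3 libraries, and a link between the members and these cell types was not tested.

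**Figure D3:**
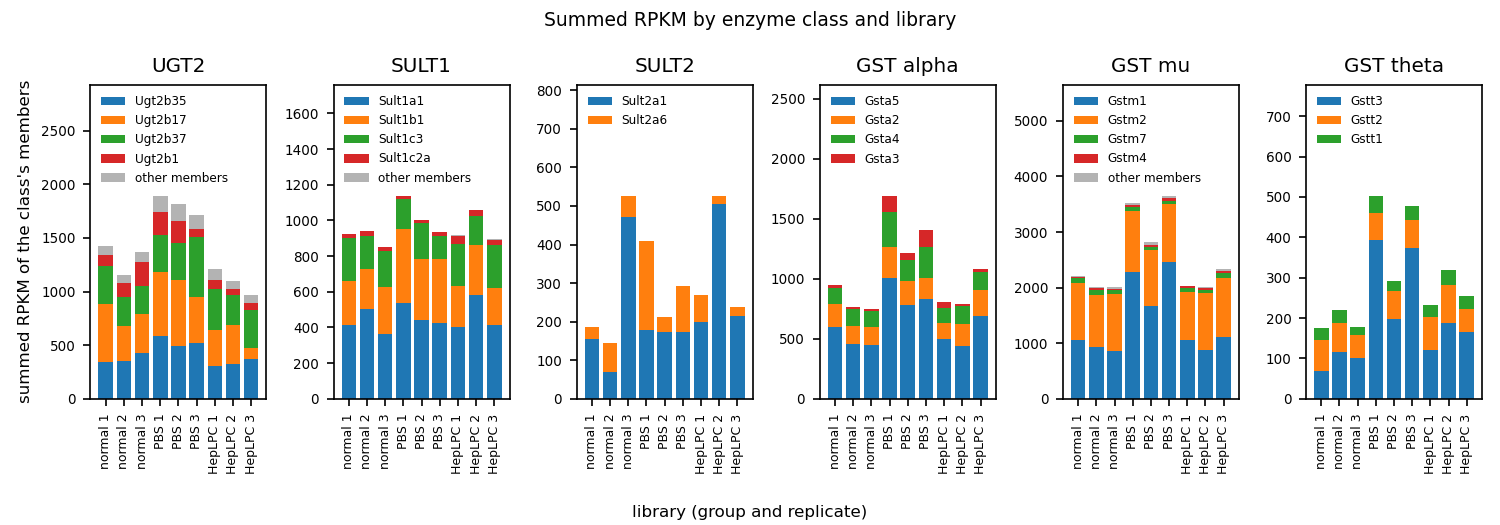
Summed RPKM (vertical axes, each from 0 and scaled separately) of the members of 6 enzyme classes in each library, with bars stacked by the 4 most abundant members and the rest in grey. The mu-class bars of PBS libraries reach 2820.0 to 3648 RPKM mostly through Gstm1, and the SULT2 bars vary within groups, from 146 to 525 RPKM among normal libraries.

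The UGT2 enzymes glucuronidate steroids, bile acids and drugs. Of their 7 rows, Ugt2a3 and Ugt2b35 rose in PBS against normal livers, beside 10.4% of all rows called higher. Ugt2b35 fell in HepLPC against PBS livers, beside 2.93% of all rows called lower. Ugt2b7 is described apart. The class summed to 1316 ± 141 RPKM (SD, n = 3) in normal, 1806 ± 89.1 in PBS and 1091 ± 122.5 in HepLPC livers, and the lowest PBS library (1713) lay above the highest of the others (1427). Ugt2b35, the most abundant member by its mean over libraries, stood at 341, 354 and 426 RPKM in normal, 586, 492 and 516 in PBS and 311, 327 and 369.9 in HepLPC livers. It was called higher in PBS livers by the narrowest margin (0.51, SE 0.14, adjusted p = 0.04999) and lower in HepLPC than PBS livers (-0.66, SE 0.14, adjusted p = 0.0418). Leaving out any 1 library but HepLPC replicate 2 lost the first call (adjusted p 0.0607 to 0.173), and leaving out any 1 library lost the second (0.0576 to 0.146).

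Ugt2a3 stood at 39.9, 27.4 and 37.8 RPKM in normal, 66.7, 86.7 and 73.7 in PBS and 56.1, 38.5 and 26.8 in HepLPC livers, with the PBS libraries above all others. Its difference for PBS against normal was 1.10 (SE 0.25, adjusted p = 0.0237), lost without any 1 normal library or without PBS replicate 2 or 3 (adjusted p 0.05 to 0.099), and for HepLPC against PBS -0.94 (adjusted p = 0.0859). Ugt2b17, an older name of 2 genes in GRCr8, and Ugt2b1 were not called. Ugt2b17 stood at 107 RPKM in HepLPC replicate 3 against 335 and 358 in the other HepLPC libraries, and Ugt2b1 stood at 59.4 to 83.4 RPKM in HepLPC livers against 104 to 223 in normal livers (-1.08, 95% interval -1.99 to -0.16, adjusted p = 0.469). Ugt2b10 varied little, at 33.4 to 51.1 RPKM, and Ugt2b37 lay between 268 and 566 RPKM.

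Ugt2b7, a steroid and drug glucuronosyltransferase by its name, was close to silent in normal livers. It stood at 0.0780, 0.0238 and 0.0241 RPKM there, from 3, 1 and 1 recovered reads. PBS livers held 42.5, 17.5 and 2.33 RPKM (1461, 697 and 89 reads) and HepLPC livers 0.402, 0.562 and 0.685 RPKM (15, 21 and 23 reads). The 3 groups did not overlap, and the PBS libraries themselves spanned 42.5 to 2.33 RPKM. On the log2 scale PBS and normal livers differed by 3.74, a value set in part by the pseudocount of 1 RPKM since it was 6.45 with 0.1 RPKM, and HepLPC and PBS livers by -3.17. Because the filter let Ugt2b7 in through its PBS libraries alone, its test is not used as a result and no p-value of it is given.

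The 8 UGT1 rows need a separate reading. In rats as in other mammals the UGT1 locus joins alternative first exons, each with its own start site, to common downstream exons, so the isoforms share the UDP-glucuronate binding part of the protein. In the RefSeq gene table of GRCr8 all 8 members share 1 end and have 8 different starts. The deposited rows carry the common reads in full: Ugt1a8 and Ugt1a9 differed by 0 to 4 reads in each library, out of 7238 to 10984, and the largest distance between Ugt1a3 and Ugt1a9 over the 9 libraries was 0.00133 on the log2 scale. By limma 0 of the 8 rows were called in any comparison, with 1 higher in PBS than normal and 6 lower in HepLPC than PBS livers at an unadjusted p under 0.05. Ugt1a6 stood at 199.9, 197 and 154 RPKM in normal, 292, 209 and 301 in PBS and 179, 176 and 185 in HepLPC livers, higher in PBS without overlap but not called (0.53, SE 0.17, adjusted p = 0.0783) unless PBS replicate 2 was left out (0.70, adjusted p = 0.0307). Ugt1a1, the bilirubin-conjugating isoform, stood at 294, 285 and 219, 328, 262 and 297, and 242, 208 and 266 RPKM in normal, PBS and HepLPC livers, with overlapping groups (0.16 for PBS against normal, adjusted p = 0.574).

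Because reads could be recovered from the RPKM values, the reads of each row above those of Ugt1a9, the lowest or tied lowest row in every library, were taken as particular to that row. This alternative was chosen after seeing the data. Ugt1a6 then had 467, 328 and 290 reads above Ugt1a9 in normal, 1876, 1638 and 3518 in PBS and 895, 384 and 593 in HepLPC livers, which was 3.14% to 4.81%, 14.8% to 24.3% and 4.64% to 10.6% of its row. Scaled to depth this was 17.3 ± 5.33 (SD, n = 3), 121 ± 51.2 and 33.4 ± 13.2 reads per M reads. The PBS libraries lay above all others. In limma with these values in place of the rows, Ugt1a6 was called higher in PBS than normal livers (2.60, SE 0.35, adjusted p = 0.00187) and lower in HepLPC than PBS livers (-1.78, SE 0.35, adjusted p = 0.0298). The first call was kept without any 1 library (adjusted p 0.00123 to 0.0122). The second was lost without normal replicate 2 or 3, PBS replicate 3, or HepLPC replicate 2 or 3 (adjusted p 0.0503 to 0.107), without PBS replicate 1 and HepLPC replicate 2 together (0.0765) and under the median-of-ratios rescaling (0.0515).

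Ugt1a7c, a neighbouring isoform of the same locus, had 16, 22 and 24 such reads in normal, 125, 40 and 137 in PBS and 22, 18 and 19 in HepLPC livers, and was called higher in PBS livers (1.13, SE 0.27, adjusted p = 0.0268). That call was lost without any 1 normal library or without PBS replicate 1 or 3 (adjusted p 0.0695 to 0.107) and under both rescalings (0.0575 and 0.175). These Ugt1a7c reads reached 1 RPKM only in PBS replicates 1 and 3 (3.10 and 3.06), and those of Ugt1a2 only in PBS replicate 2 (3.71). By themselves they would not have passed the filter of 1 RPKM in 3 libraries, and were tested because the whole rows passed. Tests of these reads for Ugt1a7c and Ugt1a2 are therefore a description. Ugt1a2 had 3, 8 and 8 reads in normal and 34, 171 and 30 in PBS livers and was not called (1.11, adjusted p = 0.0598). It was called with a pseudocount of 0.1 RPKM (2.63, adjusted p = 0.0249), without PBS replicate 2 (0.64, adjusted p = 0.0258) and without PBS replicate 1 and HepLPC replicate 2 together (1.31, adjusted p = 0.0395). In HepLPC against PBS livers Ugt1a7c was not called (-1.10, adjusted p = 0.0634) unless PBS replicate 2 was left out (-1.48, adjusted p = 0.00176). The isoforms with the most such reads in normal livers were not called. Ugt1a1 had 171 ± 34.6 reads per M above Ugt1a9 in normal, 138 ± 24.7 in PBS and 135 ± 64.2 in HepLPC livers (-0.30 for PBS against normal, SE 0.36, adjusted p = 0.631), and Ugt1a5 had 49.3 ± 6.09, 36.7 ± 10.3 and 43.4 ± 17.2 (-0.44, adjusted p = 0.405). A difference between isoforms was not itself tested. In GRCr8 the names Ugt1a6, Ugt1a8 and Ugt1a9 are each the symbol or an older name of 2 genes, so the isoform names follow the files.

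**Figure D4:**
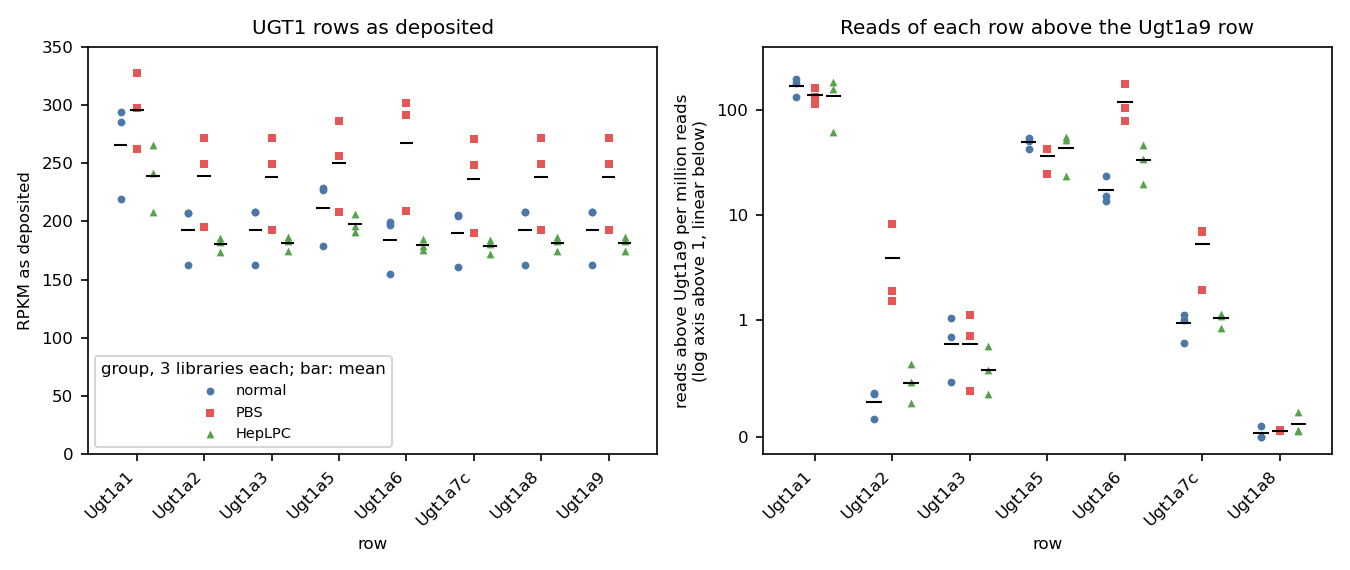
UGT1 rows in each library, as deposited RPKM (left, linear axis from 0) and as reads above the Ugt1a9 row per M reads of depth (right, log axis above 1), with points for libraries and bars for group means. The rows look alike on the left, while on the right Ugt1a6 averages 17.3, 121 and 33.4 reads per M in normal, PBS and HepLPC livers and Ugt1a1 averages 171, 138 and 135.

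The promoter windows of these isoforms (RefSeq, GRCr8, 250 bases before to 50 bases after the start) are shown because each isoform starts at its own site, beside those of Ugt2b7 and Gstm1, whose PBS libraries lay above all others. Capitals mark matches to the letters searched on both strands: TGACNNNGC (core of the antioxidant response element, bound by Nrf2), GCGTG (core of the xenobiotic response element, bound by the Ah receptor) and GTTAAT (part of the HNF1 motif). They lie at chr9:96248893-96249192 (plus strand) for Ugt1a1, chr9:96194768-96195067 (plus) for Ugt1a6, chr9:96187132-96187431 (plus) for Ugt1a7c, chr14:21251285-21251584 (plus) for Ugt2b7 and chr2:198343334-198343633 (minus) for Gstm1.
Ugt1a1: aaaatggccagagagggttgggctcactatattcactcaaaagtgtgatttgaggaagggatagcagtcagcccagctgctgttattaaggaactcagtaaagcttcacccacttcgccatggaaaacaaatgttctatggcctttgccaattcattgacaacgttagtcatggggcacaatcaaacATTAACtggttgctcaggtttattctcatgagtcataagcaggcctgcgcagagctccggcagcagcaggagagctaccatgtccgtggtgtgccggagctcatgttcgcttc
Ugt1a6: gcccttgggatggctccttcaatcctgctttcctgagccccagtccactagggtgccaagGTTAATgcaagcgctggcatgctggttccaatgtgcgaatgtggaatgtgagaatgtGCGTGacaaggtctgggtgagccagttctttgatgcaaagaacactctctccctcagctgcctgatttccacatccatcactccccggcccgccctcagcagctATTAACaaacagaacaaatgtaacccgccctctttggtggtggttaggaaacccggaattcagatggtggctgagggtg
Ugt1a7c: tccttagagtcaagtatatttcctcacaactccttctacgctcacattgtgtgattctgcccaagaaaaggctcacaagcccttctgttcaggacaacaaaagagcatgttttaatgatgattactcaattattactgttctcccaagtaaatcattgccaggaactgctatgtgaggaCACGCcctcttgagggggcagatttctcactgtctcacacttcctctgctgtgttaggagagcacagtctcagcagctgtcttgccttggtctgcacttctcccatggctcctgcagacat
Ugt2b7: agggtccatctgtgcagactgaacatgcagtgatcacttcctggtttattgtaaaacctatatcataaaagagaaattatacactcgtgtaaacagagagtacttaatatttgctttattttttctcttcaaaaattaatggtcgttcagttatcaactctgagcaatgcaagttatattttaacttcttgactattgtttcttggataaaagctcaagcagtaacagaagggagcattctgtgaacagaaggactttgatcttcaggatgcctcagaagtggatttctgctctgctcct
Gstm1: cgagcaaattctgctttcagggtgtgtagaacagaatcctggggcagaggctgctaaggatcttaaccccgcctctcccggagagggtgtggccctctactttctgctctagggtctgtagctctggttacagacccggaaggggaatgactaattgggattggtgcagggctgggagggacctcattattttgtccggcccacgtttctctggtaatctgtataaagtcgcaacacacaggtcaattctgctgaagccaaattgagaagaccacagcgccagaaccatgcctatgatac

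The Ugt1a6 window held GCGTG 1 time, from -133 to -129 relative to the start, and GTTAAT 2 times, from -190 to -185 and, on the other strand, from -29 to -24. The Ugt1a7c window held GCGTG 1 time on the other strand, from -71 to -67, and the Ugt1a1 window GTTAAT 1 time on the other strand, from -63 to -58. None of the 3 motifs was in the Ugt2b7 and Gstm1 windows. A window was found for 33 of the 39 members, and TGACNNNGC was in 3 of them (9.1%), GCGTG in 7 (21.2%) and GTTAAT in 7 (21.2%), beside 12.1%, 29.7% and 7.5% of all 33469 windows of the table. GCGTG matches lay in the windows of Gsta2, Gsta4, Gstm4, Ugt1a3, Ugt1a6, Ugt1a7c and Ugt1a8, and GTTAAT matches in those of Sult2a6, Ugt1a1, Ugt1a2, Ugt1a3, Ugt1a6, Ugt2a3 and Ugt2b10. A match is a description of the letters and not of binding.

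Among the sulfotransferases, Sult1b1 rose in PBS against normal livers and Sult1c2a rose in HepLPC against PBS livers. Sult1b1 is 1 of 7 members (14.3%), near the 10.4% of all rows called higher, so the count is no result about the class. Sult1b1, which sulfates phenols and thyroid hormones, stood at 248, 222 and 264 RPKM in normal, 417, 341 and 357 in PBS and 233, 280.4 and 204 in HepLPC livers, with the PBS libraries above all others. Its difference was 0.60 (SE 0.16, adjusted p = 0.037) for PBS against normal and -0.64 (SE 0.16, adjusted p = 0.0598) for HepLPC against PBS. The latter was called without HepLPC replicate 2 (-0.76, adjusted p = 0.0376), without PBS replicate 1 and HepLPC replicate 2 together (-0.68, adjusted p = 0.0392) and after quantile normalization (-0.65, adjusted p = 0.033). The first call was lost without any 1 normal or PBS library or HepLPC replicate 1 (adjusted p 0.0535 to 0.146). Sult1a1, the phenol sulfotransferase and most abundant member of the class, stood at 414, 505 and 365, 535, 441 and 425, and 400.1, 581 and 416 RPKM in the 3 groups, which overlapped (0.13 for PBS against normal, adjusted p = 0.696).

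Sult1c2a was the only member called higher in HepLPC than PBS livers. It stood at 20.3, 25.0 and 26.6 RPKM in normal, 16.2, 18.8 and 22.5 in PBS and 47.3, 33.9 and 31.4 in HepLPC livers. Every HepLPC library lay above every other library, while normal and PBS libraries overlapped. The difference was 0.92 (SE 0.19, adjusted p = 0.0326) against PBS and 0.61 (95% interval 0.19 to 1.03, adjusted p = 0.349) against normal livers. The call was lost in 11 of 18 alternative fits, among them those without normal replicate 2 or 3, any 1 PBS library, or HepLPC replicate 1 or 2 (adjusted p 0.0545 to 0.0981), and without PBS replicate 1 and HepLPC replicate 2 together (0.0706). The related low row Sult1c2, at 0.493 to 1.84 RPKM, also had its HepLPC libraries above the PBS libraries (0.53, adjusted p = 0.124) and was not called, and paralogous rows may share reads. Sult1c3 lay at 131 to 242 RPKM with overlapping groups.

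The SULT2 rows, which sulfate hydroxysteroids and bile acids, varied widely within groups. Sult2a1 stood at 155, 70.7 and 472 RPKM in normal, 179, 173 and 172 in PBS and 198, 504 and 216 in HepLPC livers, so normal replicate 3 and HepLPC replicate 2 were high and the PBS libraries were close together. Sult2a6 stood at 30.0, 75.2 and 52.3, 229.9, 38.3 and 119, and 71.6, 21.8 and 23.3 RPKM. Neither was called, with differences for PBS against normal of 0.01 (95% interval -1.32 to 1.35) and 1.04 (-0.44 to 2.51).

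The 12 rows with a matching name below the filter were Gsta1, Gstm6l, Gsto2, Gstt4, Sult1d1, Sult2a2, Sult2b1, Sult4a1, Sult5a1, Sult6b1, Ugt1a9-ps and Ugt2a1. Gstt4 and Ugt1a9-ps were listed at 0 in all libraries. Sult5a1 stood at 0, 0 and 0.0423 RPKM in normal, 0.765, 1.06 and 0.690 in PBS and 0.423, 0.282 and 0.157 in HepLPC livers, and was not tested. Sult2a2 reached 5.01 RPKM in PBS replicate 1 and at most 0.687 RPKM in the other libraries.

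Genes that supply the cosubstrates were read from lists chosen for their roles, beside the 10.4% of all rows called higher in PBS against normal livers and the 2.93% called lower in HepLPC against PBS livers. Without PBS replicate 1 and HepLPC replicate 2 together, the calls of Ugdh, Gclm, Gsr, Gstp1, Nqo1 and Ephx1 in HepLPC against PBS livers were lost (adjusted p 0.0693 to 0.0942). For glucuronidation, 1 of 6 genes (16.7%) of UDP-glucuronate supply rose in PBS livers: Ugdh, the UDP-glucose dehydrogenase that makes UDP-glucuronate, at 76.4, 56.4 and 49.0 RPKM in normal, 135, 111 and 185 in PBS and 78.6, 62.5 and 59.7 in HepLPC livers. PBS libraries lay above all others (1.22, SE 0.22, adjusted p = 0.00845), and Ugdh fell in HepLPC against PBS livers (-1.07, adjusted p = 0.0375), a call lost in 13 of 18 alternative fits, among them those without normal replicate 2 or 3, PBS replicate 1 or 3 or any 1 HepLPC library (adjusted p up to 0.137). For sulfation, 1 of 9 tested genes (11.1%) rose: Papss1, a PAPS synthase, at 1.92, 1.28 and 1.33 RPKM in normal, 3.83, 6.25 and 6.20 in PBS and 2.42, 2.59 and 2.76 in HepLPC livers (1.34, SE 0.18, adjusted p = 0.00187, and -0.82 for HepLPC against PBS, adjusted p = 0.0449, the latter lost without any 1 library but PBS replicate 1, up to 0.188). Medians of these lists were 0.31 and 0.09 for PBS against normal, beside 0.18 for all rows. The shares of 16.7% and 11.1% each rest on 1 gene and lie near the 10.4% of all rows, so neither count is a result about its list.

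For glutathione, 6 of 15 tested genes (40.0%) of synthesis and turnover rose in PBS livers and 0 fell, with a list median of 0.28. They were Gclc and Gclm (the subunits of glutamate-cysteine ligase, which sets the pace of glutathione synthesis), Gss (glutathione synthetase), Gsr (glutathione reductase), and Ggt1 and Dpep1 (peptidases that break glutathione and its conjugates down). Ggt1 stood at 0.165, 0.211 and 0.0918 RPKM in normal, 12.3, 5.76 and 17.0 in PBS and 0.986, 1.15 and 1.17 in HepLPC livers (3.35, adjusted p = 0.000281). The HepLPC libraries lay between the other groups, and the difference for HepLPC against PBS was -2.48 (adjusted p = 0.00435). Gclm stood at 81.2, 59.4 and 59.7, 179, 157 and 337, and 83.5, 89.4 and 94.6 RPKM in normal, PBS and HepLPC livers (1.66, adjusted p = 0.00408). In HepLPC against PBS livers 4 of the 15 (26.7%) fell: Ggt1, Dpep1, Gclm and Gsr. Ggt1 and Dpep1 stayed under 1 RPKM in every normal library, and Dpep1 also in HepLPC replicates 2 and 3 (0.874 and 0.922). Neither would have passed the filter on low values without its PBS libraries, where it was high. The counts of 6 and 4 include both genes, so they are a description and no result about the list. Ggt1 is also a gene of duct cells, whose markers moved in the same direction, and their part in this value was not tested. In PBS against normal livers the calls of Ggt1, Dpep1 and Gclm were kept in all 18 alternative fits. That of Gsr was lost without normal replicate 2 or 3 (adjusted p up to 0.0559), that of Gclc without any 1 normal library or PBS replicate 1 or 3 (up to 0.121), and that of Gss without these or HepLPC replicate 3 (up to 0.132). In HepLPC against PBS livers the call of Ggt1 was kept throughout, that of Dpep1 was lost without PBS replicate 3 (0.0634), and those of Gclm and Gsr without any 1 library but PBS replicate 1 or 2 (up to 0.125 and 0.127).

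Of 6 tested GSTs outside the set, 1 (16.7%) rose in PBS livers and fell in HepLPC livers: Gstp1, the pi-class enzyme, at 16.6 ± 1.87 RPKM (SD, n = 3) in normal, 760.3 ± 580.1 in PBS and 71.8 ± 16.5 in HepLPC livers. The fall was not called without PBS replicate 3 or HepLPC replicate 1 or 2 (adjusted p up to 0.0836). The share of 16.7% rests on 1 gene and lies near that of all rows, so the count is no result about the list. Other conjugation and hydrolysis genes gave 2 higher (10.5%, the share of all rows being 10.4%) and 1 lower of 19 in PBS against normal livers, so the count of higher genes is no result about the list. The higher were Nqo1, a quinone reductase (20.1 ± 8.95, 161 ± 87.7 and 21.9 ± 15.5 RPKM in the 3 groups), and Ephx1, the microsomal epoxide hydrolase (658 ± 147, 1220.0 ± 152 and 588 ± 109), and both fell in HepLPC against PBS livers. The lower was Inmt, an N-methyltransferase (-1.35, adjusted p = 0.0135), not called without normal replicate 2 or 3 (up to 0.0595). In PBS against normal livers Nqo1 kept its call throughout, and Ephx1 lost it without normal replicate 1 or 3 or PBS replicate 1 or 3 (up to 0.104). In HepLPC against PBS livers the call of Nqo1 was lost without PBS replicate 3 or HepLPC replicate 2 or 3 (up to 0.089), and that of Ephx1 without any 1 library but normal replicate 3 (up to 0.138).

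Of the export and uptake carriers 3 of 13 (23.1%) rose in PBS against normal livers: the export pumps Abcc3 (2.71, adjusted p = 0.000735), Abcc4 (0.72, adjusted p = 0.0413) and Abcg2 (0.65, adjusted p = 0.0317), and Abcc3 fell in HepLPC against PBS livers (-2.09, adjusted p = 0.00797). The Abcc3 calls were kept in all 18 alternative fits, that of Abcc4 was lost without any 1 library but HepLPC replicate 2 or 3 (up to 0.158), and that of Abcg2 without any 1 normal library or PBS replicate 1 or 2 (up to 0.103). Abcc3 stood at 0.206, 0.377 and 0.326 RPKM in normal and 1.448, 0.369 and 1.415 in HepLPC livers. It would not have passed the filter on low values without its PBS libraries, where it was high, so its calls are a description. The carrier list's median was -0.29, opposite in sign to its called members, with the uptake carriers Slc10a1, Slco1a2 and Slc22a7 and the exporter Abcc6 lower without overlap but not called. Lower without overlap were 4.92% of all rows. Deconjugating enzymes gave 0 of 7 called by limma in any comparison (1 lower in HepLPC than PBS livers at an unadjusted p under 0.05). Of 20 regulators 1 (5.00%) was called higher in PBS against normal livers, under the 10.4% of all rows. This was Maff, a small Maf protein that partners Nrf2, which passed the filter only through its PBS libraries and had to differ: it stood at 0.186, 0.265 and 0.0385 RPKM in normal, 2.59, 1.56 and 2.57 in PBS and 0.470, 0.256 and 0.308 in HepLPC livers. The nuclear receptor Nr1i3 fell in HepLPC against PBS livers (-1.09, adjusted p = 0.0251). The Nr1i3 call was lost without PBS replicate 2 or 3 or HepLPC replicate 1 or 2 (up to 0.112). The rows Ugt3a2 and Ugt8 were listed at 0. None of these lists had a called gene in HepLPC against normal livers.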

How the data were processed

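Whole liver RNA of 9 rat liver samples was sequenced, 3 in each of 3 groups, and each sample's title gave its group and replicate number. The authors deposited RPKM values, as named per the file headers, in 40154 rows per library. The submitters' processing notes name HISAT2, StringTie and the human build hg19, although the rows carry rat symbols, so the build and annotation behind the values are uncertain and no coordinates of the rows are given. The sources used here do not say how reads shared by paralogs were counted.

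RPKM values of a row were whole multiples of what 1 read is worth, which gave each library's depth, each row's length and the reads of 11124 of 11124 tested rows (100.0% whole within 0.001 read). No count test was run, since the deposited unit is RPKM. Differences were tested with limma 3.58.1 in R 4.3.3 (lmFit and eBayes with a trend, two-sided) on log2(RPKM + 1), for rows that reached 1 RPKM in at least 3 libraries, with 1 term per group over all 9 libraries (6 residual degrees of freedom). The threshold for a call was an adjusted p under 0.05, by Benjamini-Hochberg over all tested rows. A difference on this scale understates the change of rows with low RPKM. The fit was tested on simulated data. Depth was 17.4 M to 21.8 M reads.

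The named members are every called member, the most abundant member of each class, Ugt2b7 and Sult1c2a, and the 4 uncalled members with the largest differences among those whose groups did not overlap in PBS against normal livers. Other members named were chosen after their values were seen. Pathway lists contribute up to 4 called genes each, and further genes of these lists were likewise named after their values were seen. The members and lists were chosen with earlier results of these data known. Promoter windows came from RefSeq (GRCr8), matched by symbol or gene ID, and 1 symbol with more than 1 window was left out. Motif matches used both strands. Protein identity between paralogs was not analysed here. Alternatives were another pseudocount, no filter, 2 rescalings, only the groups compared, no trend, a replicate block, and libraries left out.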

Additional observations from a re-analysis of the deposited data

How the results depend on the processing

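Each comparison was refitted under 18 alternatives. The counts here include Ugt2b7, which passed the filter only through its PBS libraries and had to differ. For PBS against normal livers, the 10 members called higher became 4 after rescaling by the median of ratios (with 1 called lower, where the deposited scale gave 0), 6 after quantile normalization, and 4 to 6 when 1 normal or PBS library was left out (5, 4 and 4 without normal replicates 1, 2 and 3, 5, 6 and 4 without PBS replicates 1, 2 and 3, and 7, 10 and 8 without HepLPC replicates 1, 2 and 3). The members' median difference of 0.31 became 0.02 under the median of ratios. All rows moved too: 1157 called higher became 530 under the median of ratios and 492 after quantile normalization, and their median of 0.18 became -0.04 under both. Counts of all rows with 1 library left out are not given, so the members' counts there cannot be read as particular to them. For HepLPC against PBS livers, the 1 member called higher became 0 and the 3 called lower became 1 with no filter on low values, 0 and 0 with only the 2 groups in the fit, and 0 and 1 (Sult1b1, not called with all libraries) without PBS replicate 1 and HepLPC replicate 2 together. The median of ratios gave 1 higher and 0 lower, with a median of -0.14 in place of -0.37, and leaving out 1 library gave 0 to 1 higher and 1 to 4 lower. For all rows this rescaling took the calls from 15 higher and 326 lower to 23 and 158. HepLPC against normal livers gave 0 called members in all 18. Where a cause is not plain from fewer samples or another set of tested rows, the cause was not tested. No pairing by replicate number was seen: over 9 same-number pairs the correlation of deviations from group means ran from -0.412 to 0.31, with 3 over 0.1, and not every sample correlated best with its own number. The highest correlation (0.608) joined PBS replicate 1 and HepLPC replicate 2, whose deviations fell with gene model length. This measure therefore cannot exclude a shared animal, batch or day. A fit with the replicate block called 5 members higher in PBS than normal livers, and 0 higher and 2 lower in HepLPC than PBS livers, where it added Gsta3 (adjusted p = 0.0278). No call changed direction under any alternative. With 3 libraries a group, intervals of variable members such as Sult2a1 and Sult2a6 were too wide to show a moderate change.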
